A study of Mus musculus with 8 samples.

Results

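Interferon-stimulated genes are the genes that cells switch on when interferon binds its receptors. The set described here holds 44 of them, named as genes induced by type I or type II interferon, and a gene was followed when its expression reached at least 1 FPKM (sequenced fragments divided by the gene's length and the library's size) in at least 2 of the 8 libraries. Of the 44 genes, 42 passed, among 9782 genes kept from tables of 23746 rows. Oas2 and Oasl2, both members of the oligoadenylate synthetase family, did not pass, with highest values of 0.317 and 0.434 FPKM.

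The libraries were RNA-seq of CD8+ T cells from BALB/c mice that bound the AH1 tetramer, a reagent that stains T cells specific for AH1, a peptide of an endogenous retroviral envelope protein. The study crossed genotype with sorted subset: wild type or Cd69 knockout (Cd69-/-), and stem-like or term diff (the labels' words). Each of the 4 groups held 2 libraries, and pairs of values below are replicate 1 and then replicate 2. The labels give neither the age of the mice, a treatment, the tumour, the sort gates nor the number of mice, and do not say how the Cd69 allele was made. Nothing in them says that replicates came from separate mice, so the p-values measure only the spread between these libraries, which may be technical.

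Type I interferons signal through IFNAR1 and IFNAR2, and interferon gamma through IFNGR1 and IFNGR2. Receptor-bound JAK kinases phosphorylate STAT proteins, which enter the nucleus and bind DNA. A complex that holds STAT2 and IRF9 binds the interferon-stimulated response element (ISRE), and the gamma-activated site (GAS) is the element of the interferon gamma response. The genes so induced sense viral nucleic acid, degrade or sequester it, tag proteins with ISG15, or build GTPase coats on intracellular vacuoles, and in T cells of tumours they are commonly read as a sign of interferon exposure.

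The deleted gene and the subset markers followed the labels. Cd69, the deleted gene, stood at 22.5 and 23.4 FPKM in stem-like and at 10.4 and 12.9 FPKM in term diff cells of wild type, against 2.21 to 3.69 in the 4 Cd69-/- libraries. Tcf7, a stem-like marker, was at 40.6 to 64.2 FPKM in stem-like and at most 0.755 in term diff libraries, and Havcr2, a term diff marker, at 23.4 to 39.8 in term diff and at most 2.29 in stem-like libraries; such markers may restate the sort. All 8 markers of CD8 T cells were kept, and summed to 983 to 1485 FPKM. B-cell markers summed to at most 0.616 FPKM. Summed markers of tumour and stroma were higher in the stem-like libraries (27.8 to 35.3 FPKM) than in the term diff ones (8.67 to 11.6), carried by Pecam1 and Igfbp7, the 2 of 9 that were kept. Summed myeloid markers ran from 6.13 to 7.94 FPKM in stem-like and from 2.71 to 5.96 in term diff libraries, with 3 of 10 kept. Summed NK-cell markers went the other way, at 23.7 to 28.0 FPKM in stem-like and 30.0 to 39.2 in term diff libraries, with Eomes, Klre1 and Gzma kept. These 3 had no common direction. Averaged over genotypes, 1 was higher and 1 lower in term diff cells at an adjusted p under 0.05 (limma). Summed CD4 and regulatory T-cell markers, 5 of 6 kept, ran from 114.6 to 123.6 FPKM in stem-like and 78.1 to 118.4 in term diff libraries. Dendritic-cell markers, 2 of 10 kept and one of them Bst2 of this set, ran from 9.10 to 14.1 and from 7.35 to 13.8 FPKM. Summed neutrophil and erythroid markers each summed to at most 1.34 FPKM. Of the markers not kept, Foxp3 reached at most 1.14 FPKM, and Ncr1, the highest of the NK-cell ones, at most 0.375. Whether the marker RNA came from other cells or from the sorted CD8 T cells was not tested, nor was its part in the differences between subsets below. In bulk RNA a smaller number of cells and less RNA per cell cannot be told apart. The depth implied by the deposited confidence limits was 2055402 to 2591061 fragments a library. Small RNA took 55.4% and 62.4% of the FPKM sum in the second wild-type term diff and second wild-type stem-like library, and 77.2% to 83.9% in the other 6.

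The ISRE was common in the promoters of this set. RefSeq's promoter table (build GRCm38.p6, the C57BL/6J genome, whereas the mice were BALB/c) gave 41 windows of 300 bases, from 250 before to 50 after a start site, for 33 of the 44 genes. An ISRE core was taken as GAAA, any 2 bases and GAAA, on either strand, and a GAS core as TTCNNNGAA, which reads the same on both strands. The ISRE core was found in 18 of these 33 genes (54.5%) against 3.99% of the 27025 symbols with a window in the table, and the GAS core in 10 of 33 (30.3%) against 9.55%. The stretches below run from 120 bases before the start site to base 30 of the transcript, 5′ to 3′ on the gene's strand, with ISRE cores in capitals. They were chosen to show the ISRE in 4 genes that were higher and 1 gene that was lower in term diff cells.
Isg15: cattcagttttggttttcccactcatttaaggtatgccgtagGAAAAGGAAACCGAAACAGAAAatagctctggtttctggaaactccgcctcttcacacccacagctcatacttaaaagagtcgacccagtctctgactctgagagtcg
Gbp7: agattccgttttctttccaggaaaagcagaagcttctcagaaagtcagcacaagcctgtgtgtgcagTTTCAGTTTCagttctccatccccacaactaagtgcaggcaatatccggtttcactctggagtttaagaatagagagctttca
Ddx58: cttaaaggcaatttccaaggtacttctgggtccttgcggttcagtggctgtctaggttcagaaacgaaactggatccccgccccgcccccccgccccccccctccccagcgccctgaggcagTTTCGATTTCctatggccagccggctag
Eif2ak2: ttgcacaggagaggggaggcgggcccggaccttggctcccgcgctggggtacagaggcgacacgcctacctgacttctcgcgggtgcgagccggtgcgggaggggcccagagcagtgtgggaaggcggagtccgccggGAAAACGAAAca
Oas3: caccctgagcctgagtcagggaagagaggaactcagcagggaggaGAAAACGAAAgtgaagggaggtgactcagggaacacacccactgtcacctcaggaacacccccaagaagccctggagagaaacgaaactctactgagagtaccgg

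In GRCm38.p6 the Isg15 stretch is chr4:156200789-156200938 (minus strand), the Gbp7 stretch chr3:142530216-142530365 (plus strand), and the Ddx58 stretch chr4:40239796-40239945 (minus strand). The Eif2ak2 stretch is chr17:78882543-78882692 and the Oas3 stretch chr5:120777630-120777779, both on the minus strand. Isg15 held 3 overlapping cores that began 78, 72 and 66 bases before the start site, where Gbp7 had 1 at 53 bases before and Oas3 1 at 75 bases before. In Ddx58 and Eif2ak2 the core lay inside the transcribed sequence and began at bases 3 and 19. Gbp7 also held GAS cores that began 106 and 87 bases before its start site, and Eif2ak2 held 1 that began 178 bases before, outside the stretch shown. Both motifs were found also in the windows of Bst2, Igtp, Irgm2 and Oas1a. Among genes called between the subsets below and with a window, the ISRE core was found in 5 of 8 that were higher in term diff cells, in 2 of 3 that were lower, and in 11 of 21 genes that were not called. A match describes letters in a window; it is not evidence of binding.

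The 42 genes spanned a wide range of levels. The median of their mean levels was 8.93 FPKM against 4.78 over all genes kept; 18 genes averaged at least 10 FPKM, 12 between 5 and 10, and 12 below 5. Within a gene the highest library was typically 1.81 times the lowest, against 1.72 times over all genes with no 0, and 28 of the 42 genes stayed below a 2-fold range. The plot of levels by library shows the order.

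**Figure D1:**
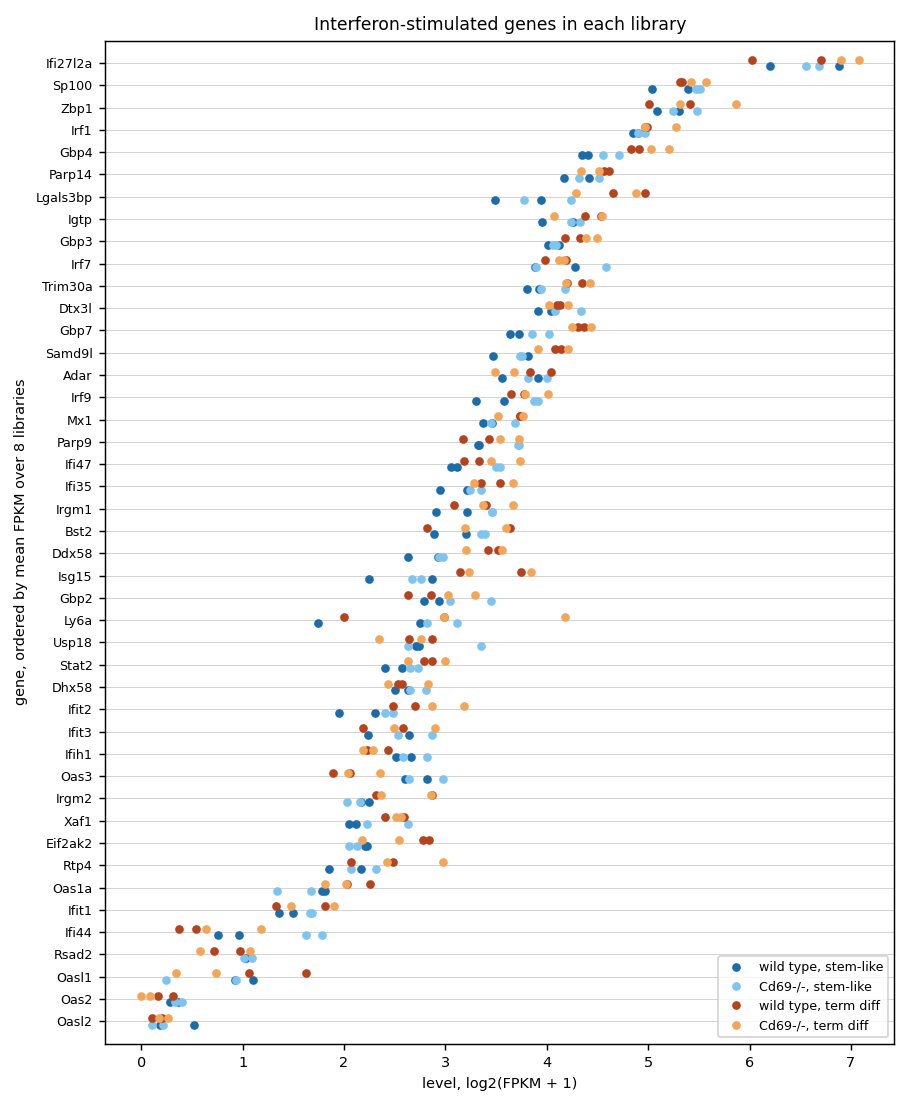
Level of each of the 44 interferon-stimulated genes in each of the 8 libraries, as log2(FPKM + 1), one point a library, coloured by genotype and subset, with genes ordered by mean FPKM. Ifi27l2a is highest at 64.1 to 133.8 FPKM, and Oas2 and Oasl2 lie below 1 FPKM in every library.

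Ifi27l2a, a small mitochondrial and membrane protein gene, was the highest of the set at 117.2 and 72.8 FPKM in wild-type stem-like, 101.9 and 93.4 in Cd69-/- stem-like, 103.2 and 64.1 in wild-type term diff, and 133.8 and 118.8 in Cd69-/- term diff libraries. Both low values belonged to the second wild-type libraries, and the groups overlapped. Sp100, a nuclear body component, followed at 31.9 and 41.1 FPKM in wild-type stem-like, 44.5 and 43.2 in Cd69-/- stem-like, 38.7 and 39.5 in wild-type term diff, and 46.6 and 41.9 in Cd69-/- term diff libraries. Zbp1, a sensor of Z-form nucleic acid that can start necroptosis, was at 38.6 and 33.1, 43.6 and 36.8, 41.5 and 31.3, and 57.5 and 38.8 FPKM in the same order of groups. Its first library was the higher in every group. These levels of Sp100 and Zbp1 did not differ from each other beyond the spread over libraries, and Irf1 came next.

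The 4 transcription factors gave no call in any comparison. Irf1, a factor induced by interferon gamma, stood at 27.8 and 28.9 FPKM in wild-type stem-like, 28.8 and 30.2 in Cd69-/- stem-like, 30.7 and 30.3 in wild-type term diff, and 37.8 and 30.3 in Cd69-/- term diff libraries. All 4 term diff libraries were above all 4 stem-like ones, but by little, and the difference averaged over genotypes was 0.15 on the log2(FPKM + 1) scale (adjusted p = 0.312, limma). Irf7, the factor that amplifies type I interferon, had 13.8 and 18.4, 22.95 and 13.9, 17.3 and 14.8, and 17.0 and 16.4 FPKM in the same order of groups, so that its largest gap lay between the Cd69-/- stem-like replicates. Irf9, the DNA-binding partner of STAT2, had 8.88 and 10.9 FPKM in wild-type stem-like, 14.1 and 13.7 in Cd69-/- stem-like, 12.7 and 11.5 in wild-type term diff, and 15.2 and 12.8 in Cd69-/- term diff libraries. Stat2 had 4.28 and 4.93, 5.63 and 5.26, 6.29 and 5.91, and 6.99 and 5.20 FPKM in that order. Its first Cd69-/- term diff library was the highest.

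The first comparison asked how the subsets differed. Differences are on the log2(FPKM + 1) scale, which understates the change of low genes, and a gene was called at an adjusted p under 0.05 over all 9782 genes (limma). Averaged over both genotypes, 9 of the 42 genes were higher in term diff cells, where 10.5% of all genes were, and 3 were lower, where 9.93% of all genes were. The 9 were Gbp7, Gbp4, Gbp3, Ddx58, Lgals3bp, Ifit2, Isg15, Eif2ak2 and Samd9l, and the 3 were Oas3, Ifi44 and Ifih1. The median difference was 0.14 against 0.02 over all genes, with 31 of 42 genes above 0, against 52.0% of all genes. RNA-directed effectors held 3 genes called higher and 1 lower, sensors 1 and 1, other antiviral effectors 1 and 1, GTPases 3 and 0, and the ISG15, PARP and ubiquitin group 1 and 0. In wild type 5 genes were higher, against 7.24% of all genes, and 1 lower, against 5.83%; the median was 0.22 against 0.06. In Cd69-/- cells 1 gene was higher, against 3.88% of all genes, and 1 lower, against 5.56%; the median was 0.07 against -0.03. Without the first Cd69-/- term diff library the median of the set was -0.06 against -0.09 over all genes, with 17 of 42 genes above 0. Without the second it was 0.22 against 0.02, with 36 above 0. By raw values, all 4 term diff libraries lay above all 4 stem-like ones in 11 of the 42 genes (26.2%), against 10.9% of all genes, and below them in 2 (4.76%), against 11.1%.

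**Figure D2:**
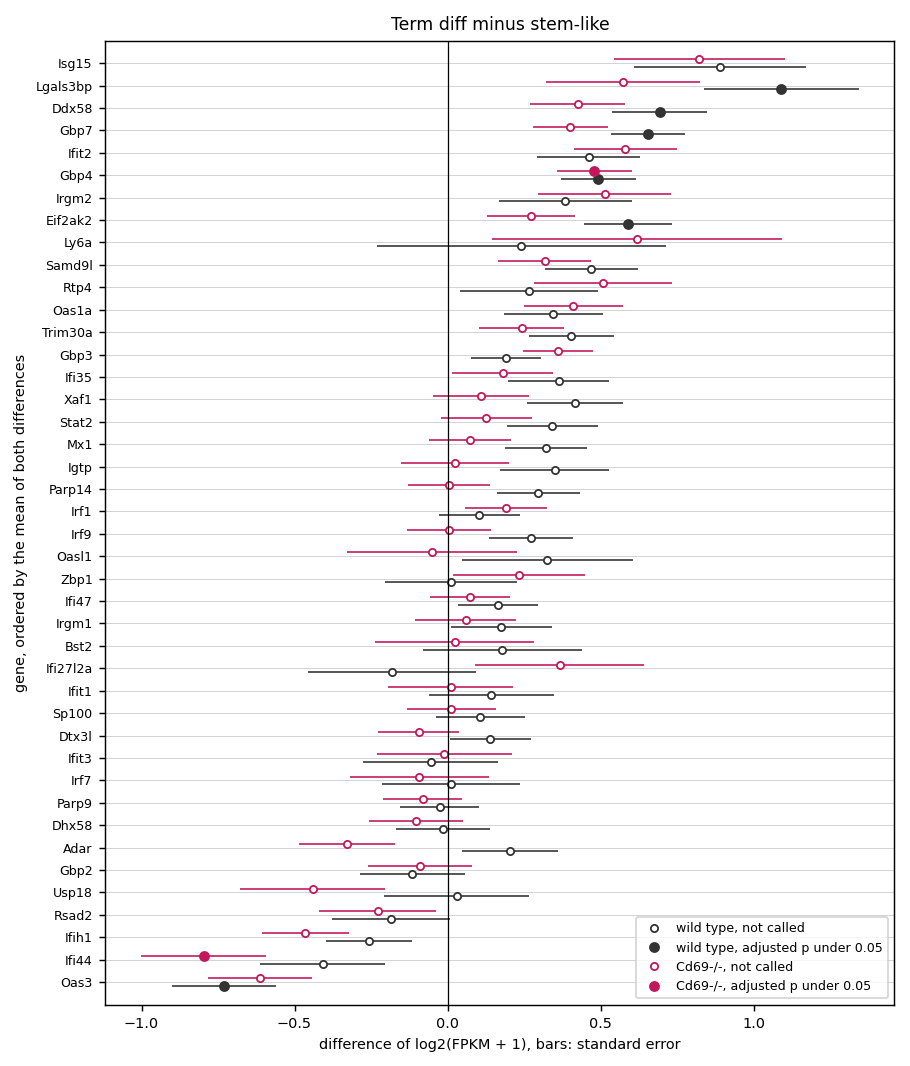
Difference of log2(FPKM + 1) between term diff and stem-like libraries for each of the 42 genes kept, with its standard error, in wild type and in Cd69-/- cells (2 libraries a group). Filled points passed an adjusted p of 0.05 over all genes: 6 in wild type and 2 in Cd69-/-. Isg15 and Lgals3bp have the largest positive averaged differences and Oas3 the largest negative one.

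The guanylate-binding proteins are GTPases that coat intracellular vacuoles and bacteria, and 3 of the 4 in the set rose. Gbp7 (chr3:142530338-142550083) had 11.5 and 12.2 FPKM in wild-type stem-like, 13.5 and 15.2 in Cd69-/- stem-like, 19.7 and 18.8 in wild-type term diff, and 20.6 and 18.02 in Cd69-/- term diff libraries. The subsets did not overlap, and Gbp7 rose by 0.53 ± 0.09 (SE; adjusted p = 0.0036) averaged over genotypes and by 0.66 ± 0.12 in wild type (adjusted p = 0.0109). Gbp4 (chr5:105115767-105139586) had 20.2 and 19.4 FPKM in wild-type stem-like, 22.5 and 25.3 in Cd69-/- stem-like, 27.4 and 29.1 in wild-type term diff, and 35.8 and 31.6 in Cd69-/- term diff libraries. It rose in both genotypes, by 0.49 ± 0.12 in wild type (adjusted p = 0.0349) and 0.48 ± 0.12 in Cd69-/- (adjusted p = 0.0470), the only gene of the set called in each; these calls held under 9 and 6 of 20 alternative settings. Gbp3 (chr3:142560052-142573212) moved least, from 15.1 to 16.4 FPKM in the 4 stem-like to 17.2 to 21.6 in the 4 term diff libraries, a rise of 0.28 ± 0.08 (adjusted p = 0.0456). Gbp2, their neighbour on chromosome 3, overlapped between subsets at 5.89 to 9.90 and 5.21 to 8.77 FPKM. The calls of Gbp4 and Gbp7 averaged over genotypes held under all 19 alternative settings tried, and that of Gbp3 under 6 of 19; these genes have close paralogues whose reads the counting may have divided.

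The genes that sense or act on viral RNA divided by direction. Ddx58 (chr4:40203777-40239825) encodes RIG-I, the sensor of short double-stranded and uncapped RNA. It had 5.20 and 6.58 FPKM in wild-type stem-like, 6.67 and 6.87 in Cd69-/- stem-like, 10.4 and 9.74 in wild-type term diff, and 10.8 and 8.23 in Cd69-/- term diff libraries. The subsets did not overlap and Ddx58 rose by 0.56 ± 0.11 (adjusted p = 0.0087). Ifih1 (chr2:62595793-62646255), which encodes MDA5, the sensor of long double-stranded RNA, went the other way. It had 5.31 and 4.69 FPKM in wild-type stem-like, 6.08 and 4.97 in Cd69-/- stem-like, 4.39 and 3.67 in wild-type term diff, and 3.88 and 3.55 in Cd69-/- term diff libraries. Again the subsets did not overlap, and Ifih1 fell by 0.36 on the log2 scale (SE 0.10; adjusted p = 0.0361), a call that held under 11 of 19 alternatives. Dhx58, the related LGP2 regulator of both sensors, overlapped between subsets at 4.66 to 5.998 and 4.39 to 6.08 FPKM.

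Oas3 (chr5:120753098-120777659), the synthetase whose oligoadenylate product activates RNase L, gave the clearest fall. It had 5.07 and 6.04 FPKM in wild-type stem-like, 6.88 and 5.25 in Cd69-/- stem-like, 3.18 and 2.72 in wild-type term diff, and 4.11 and 3.12 in Cd69-/- term diff libraries. The highest term diff library stayed below the lowest stem-like one, and Oas3 fell by 0.67 on the log2 scale (SE 0.12; adjusted p = 0.0058). Oas1a, from the same cluster on chromosome 5, had 1.53 to 2.51 FPKM in the 4 stem-like and 2.52 to 3.78 in the 4 term diff libraries, and a difference of 0.38 that missed the threshold (adjusted p = 0.0507). Eif2ak2 (chr17:78852550-78882572) encodes PKR, the kinase that stops translation on binding double-stranded RNA. It had 3.68 and 3.62 FPKM in wild-type stem-like, 3.14 and 3.36 in Cd69-/- stem-like, 5.87 and 6.13 in wild-type term diff, and 4.82 and 3.53 in Cd69-/- term diff libraries. The high values were those of wild-type term diff cells, where Eif2ak2 rose by 0.59 ± 0.14 (adjusted p = 0.0323); in Cd69-/- the difference was 0.27 and was not called (adjusted p = 0.289). The difference between those differences was -0.32 (adjusted p = 0.600), so the genotypes were not shown to differ.

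Ifit2 (chr19:34550694-34576534), which binds viral RNA and restrains translation, had 2.87 and 3.95 FPKM in wild-type stem-like, 4.28 and 4.60 in Cd69-/- stem-like, 5.50 and 4.60 in wild-type term diff, and 8.07 and 6.30 in Cd69-/- term diff libraries. The subsets met at 4.60 FPKM, and Ifit2 rose by 0.52 ± 0.12 (adjusted p = 0.0171). Its neighbours on chromosome 19 were not called: Ifit3 differed by -0.03 and Ifit1 by 0.08, with adjusted p of 0.909 and 0.757. Samd9l (chr6:3372258-3399571), an inhibitor of translation, was the highest of the RNA-directed effectors. It had 13.0 and 10.04 FPKM in wild-type stem-like, 12.3 and 12.5 in Cd69-/- stem-like, 16.6 and 15.9 in wild-type term diff, and 17.5 and 14.1 in Cd69-/- term diff libraries. The subsets did not overlap, and Samd9l rose by 0.39 ± 0.11 (adjusted p = 0.0343), a call that held under 10 of 19 alternatives. Adar, the RNA editing enzyme, had 10.8 and 14.1, 15.02 and 13.1, 13.3 and 15.5, and 11.8 and 10.2 FPKM in the order of groups used above. It had the smallest p of the set for a difference between the genotypes' subset differences, -0.53 ± 0.22 (adjusted p = 0.542, limma).

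Isg15 (chr4:156199424-156200818), the ubiquitin-like modifier conjugated to proteins under interferon, had the largest averaged rise. It had 6.29 and 3.74 FPKM in wild-type stem-like, 5.37 and 5.77 in Cd69-/- stem-like, 12.4 and 7.85 in wild-type term diff, and 13.3 and 8.43 in Cd69-/- term diff libraries. The subsets did not overlap although replicates within a term diff group differed widely, and Isg15 rose by 0.86 ± 0.20 (adjusted p = 0.0180). Its values rest on 15 to 60 implied fragments a library. Usp18, the enzyme that removes ISG15 and restrains IFNAR2, was not called, with 4.07 to 6.29 FPKM in term diff against 5.19 to 9.19 in stem-like libraries. Parp14, a mono-ADP-ribosyltransferase and the highest gene of that group, had 17.1 and 20.3 FPKM in wild-type stem-like, 21.8 and 19.0 in Cd69-/- stem-like, 23.4 and 22.7 in wild-type term diff, and 21.8 and 19.2 in Cd69-/- term diff libraries. Its groups overlapped. Dtx3l, the E3 ligase that works with PARP9, overlaps Parp9 on chromosome 16, and the strand used in counting is not given in the sources used here, so reads of this pair may be shared.

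Among the other effectors, Lgals3bp (chr11:118392752-118401931), a secreted glycoprotein that binds galectins, had 10.2 and 14.4 FPKM in wild-type stem-like, 17.9 and 12.7 in Cd69-/- stem-like, 30.2 and 24.2 in wild-type term diff, and 28.4 and 18.5 in Cd69-/- term diff libraries. The lowest term diff library was just above the highest stem-like one, and Lgals3bp rose by 0.83 ± 0.18 averaged (adjusted p = 0.0129) and 1.09 ± 0.25 in wild type (adjusted p = 0.0263). Ifi44 (chr3:151730923-151749959), an antiviral protein of the cytoplasm, was near the filter. It had 0.952 and 0.690 FPKM in wild-type stem-like, 2.45 and 2.09 in Cd69-/- stem-like, 0.450 and 0.292 in wild-type term diff, and 0.556 and 1.27 in Cd69-/- term diff libraries. Only the Cd69-/- stem-like libraries exceeded 2 FPKM, and the fall of 0.80 on the log2 scale in Cd69-/- (adjusted p = 0.0477) held under 5 of 19 alternatives. Trim30a, a negative regulator of Toll-like receptor signalling, did not overlap between subsets (13.0 to 17.1 and 17.2 to 20.5 FPKM) but missed the threshold at 0.32 (adjusted p = 0.0517).

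Calls within 1 genotype were close to the threshold and often lost when 1 library was left out. Calls over all genes also became fewer in each of these fits, by unequal amounts. Whether the set lost calls at a like rate was not tested. Without the first wild-type stem-like or the first wild-type term diff library, 0 of the 42 genes were called in wild type, without the second wild-type term diff library 1, and without the second wild-type stem-like library 3. In Cd69-/-, 7 of the 8 fits that left out a library called 0 genes and the other called 1. Both Cd69-/- calls were lost also without the first wild-type stem-like library, which is outside that comparison (adjusted p = 0.0620 for Gbp4 and 0.0558 for Ifi44). Averaged over genotypes, 6 to 11 genes were called. The averaged calls of Ddx58, Lgals3bp and Oas3 held under 18 of 19 alternatives, those of Ifit2 and Isg15 under 15, that of Eif2ak2 under 14, and that of Ifi44 under 12 of 18.

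The second comparison asked how Cd69-/- cells differed from wild type within each subset. Of the 42 genes 0 were called in stem-like cells, where 0.153% of all genes were, 0 in term diff cells, where 0.194% were, and 0 averaged over subsets, where 0.542% were (limma). At an unadjusted p under 0.05 there were 5, 7 and 11 genes of the set, and 710, 1481 and 1212 of all 9782 genes. With the fragments implied by the confidence limits, limma-voom called 0, 0 and 1 of the set and 43, 342 and 235 of all genes. In stem-like cells 38 of 42 differences were above 0 (35 after scaling by the median of ratios), against 62.5% of all genes, with a median of 0.19 against 0.06. Without the first Cd69-/- stem-like library 32 were above 0, with a median of 0.10 against 0.07. In term diff cells, with all libraries, 27 were above 0, against 42.0% of all genes, with a median of 0.06 against -0.05. Without the first Cd69-/- term diff library the median of the set there was -0.09 against -0.10 over all genes. Without the second wild-type term diff library it was -0.05 against -0.02, and without the second Cd69-/- term diff library 0.23 against 0.01. All 4 Cd69-/- libraries were above all 4 wild-type libraries in 5 genes (11.9%), against 1.75% of all genes, and below them in 0, against 1.32%. Summed CD8 T-cell markers were also higher in Cd69-/- libraries, at 1167 to 1485 FPKM against 983 to 1149, and their part in these values was not tested.

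**Figure D3:**
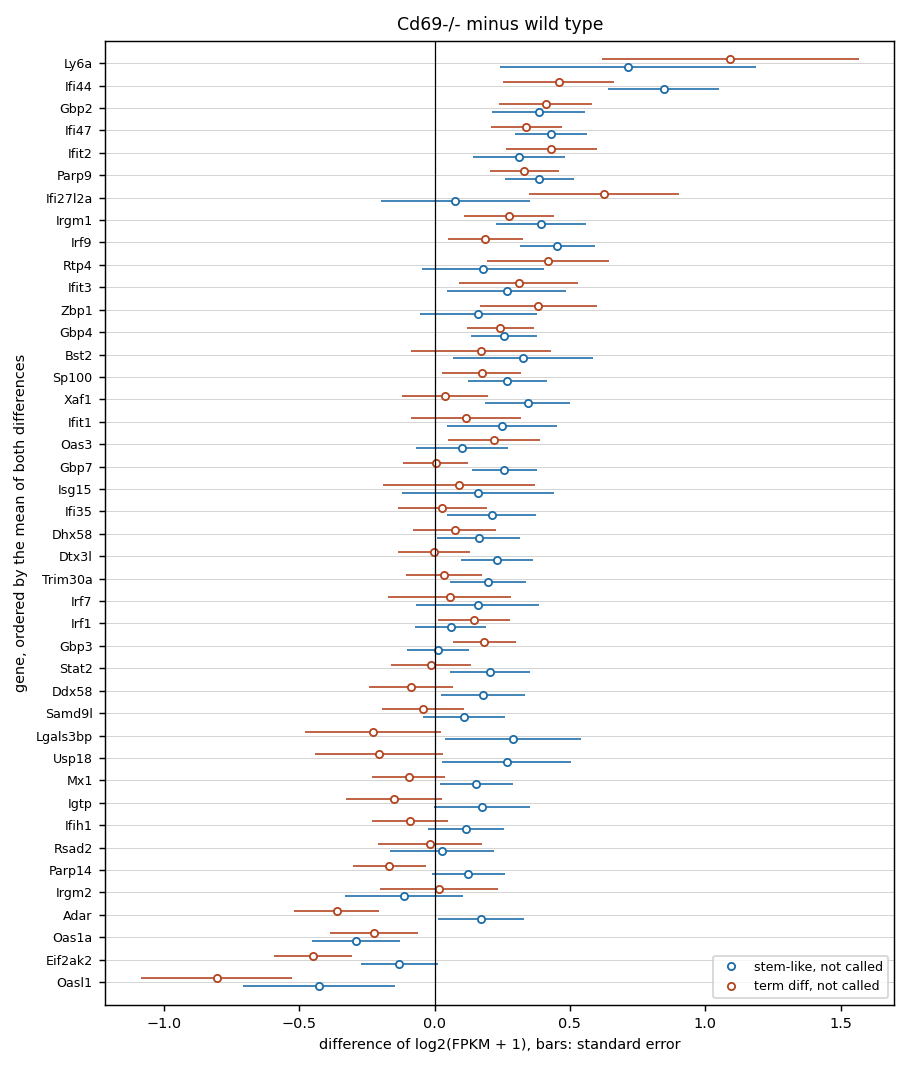
Difference of log2(FPKM + 1) between Cd69-/- and wild-type libraries for each of the 42 genes kept, with its standard error, in stem-like and in term diff cells (2 libraries a group). Every point is open because 0 genes passed an adjusted p of 0.05, and 38 stem-like points lie right of 0.

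The 5 genes without overlap between genotypes were Irf9, Sp100, Parp9, Gbp2 and Ifi47. Ifi47, an immunity-related GTPase, had 7.68 and 7.34 FPKM in wild-type stem-like, 10.6 and 10.3 in Cd69-/- stem-like, 9.04 and 8.06 in wild-type term diff, and 12.4 and 9.89 in Cd69-/- term diff libraries. Replicates of the stem-like groups lay close together, and the averaged difference was 0.38 ± 0.09 (adjusted p = 0.165, limma). Parp9, the partner of DTX3L, had 9.02 and 9.09, 12.2 and 12.1, 9.79 and 8.05, and 12.3 and 10.7 FPKM in the same order, with an averaged difference of 0.36 ± 0.09 (adjusted p = 0.174). Gbp2 had 6.65 and 5.89, 7.25 and 9.90, 6.25 and 5.21, and 8.77 and 7.13 FPKM, a difference of 0.40 ± 0.12 (adjusted p = 0.253).

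The largest averaged genotype difference among these genes was that of Ly6a, and its standard error (0.33) was also the largest. Ly6a, the surface antigen Sca-1, which activated and memory T cells carry, had 5.75 and 2.35 FPKM in wild-type stem-like, 7.63 and 6.05 in Cd69-/- stem-like, 6.92 and 2.99 in wild-type term diff, and 17.1 and 6.95 in Cd69-/- term diff libraries. Its replicates differed by more than 2-fold in 3 of the 4 groups, and the averaged difference of 0.90 was not called (adjusted p = 0.345). The values of Ly6a rest on 11 to 91 implied fragments a library. Ifi44 gave the smallest p, at 0.65 ± 0.14 averaged (adjusted p = 0.134); limma-voom called it, at 1.35 (adjusted p = 0.0363). Under the 18 other alternatives no gene of the set was called in this comparison. On the side below 0, Oasl1, an inhibitor of Irf7 translation, had 1.14 and 0.903 FPKM in wild-type stem-like, 0.908 and 0.184 in Cd69-/- stem-like, 2.08 and 1.09 in wild-type term diff, and 0.663 and 0.266 in Cd69-/- term diff libraries. Its difference in term diff cells was -0.80 (adjusted p = 0.273), and that of Eif2ak2 was -0.45 (adjusted p = 0.251), the smallest adjusted p of the set there.

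Whether the subset difference itself depended on genotype was tested as an interaction. Of the 42 genes 0 were called, against 0.0307% of all genes, and 1 had an unadjusted p under 0.05, against 889 of all 9782 genes (limma). The median was -0.13, near the -0.10 of all genes, and both moved towards 0 (-0.02 and -0.004) under median-of-ratios scaling. The larger count of calls in wild type than in Cd69-/- is therefore not shown to be a difference between the genotypes.

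The libraries themselves differed in these genes. The first Cd69-/- term diff library was the highest of the 8 in 25 of the 42 genes, against 16.3% of all genes. The wild-type stem-like libraries were each the highest in 0, against 7.55% and 12.5% of all genes. They were the lowest in 16 and 8, a count that was not made over all genes. The median gene lay 0.29 above its mean in the first Cd69-/- term diff library, where all genes had a median of 0.04. In the wild-type stem-like libraries the medians were -0.18 and -0.16, against -0.07 and 0.002 over all genes. Replicate 1 was above replicate 2 in 41 of 42 genes in Cd69-/- term diff cells (70.0% of all genes), 36 in wild-type term diff (41.4%), 31 in Cd69-/- stem-like (46.9%) and 20 in wild-type stem-like (36.5%). The gap between replicates had a median of 0.30 in Cd69-/- term diff and 0.18 in wild-type term diff cells, where the difference between genotypes averaged over subsets had a median of 0.12. The plot by library shows this spread.

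**Figure D4:**
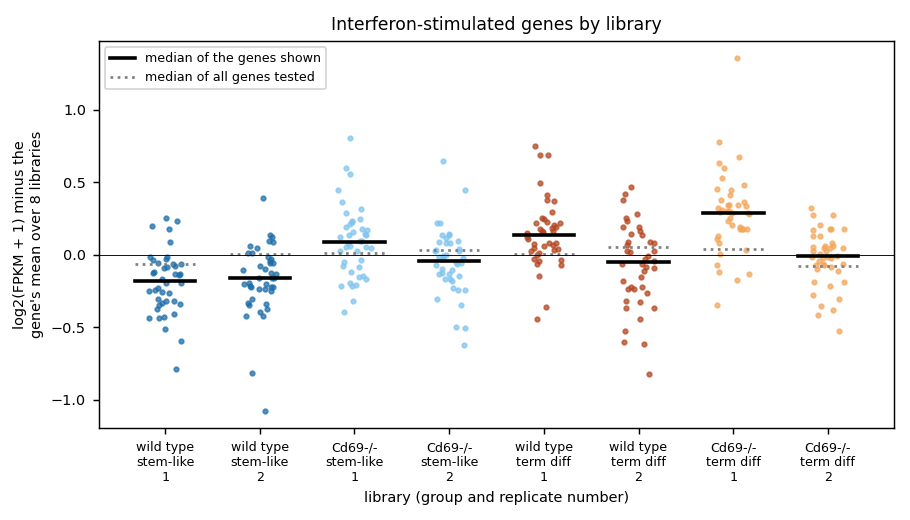
Deviation of each of the 42 genes from its own mean over the 8 libraries, as log2(FPKM + 1), by library, with the median of these genes (black) and of all genes kept (dotted). The median is highest, at 0.29, in the first Cd69-/- term diff library and lowest, at -0.18, in the first wild-type stem-like library.

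The ligands and receptors of the pathway were read from a list of the other interferon genes. Ifng, the gene of interferon gamma that CD8 T cells secrete, had 70.8 and 66.5 FPKM in wild-type stem-like, 82.1 and 72.7 in Cd69-/- stem-like, 67.5 and 78.5 in wild-type term diff, and 117.9 and 98.5 in Cd69-/- term diff libraries. The 2 Cd69-/- term diff libraries were the highest, but the difference from wild type of 0.56 was not called (adjusted p = 0.205). Of 21 listed ligands 2 were kept, Ifng and Ifnz, the latter an interferon zeta gene that fell by 0.69 on the log2 scale in term diff cells (adjusted p = 0.0080), from 4.75 to 7.37 to 2.41 to 3.69 FPKM. Ifnb1 was at most 0.230 FPKM in these cells.

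Ifngr1, the ligand-binding chain of the interferon gamma receptor, had 22.3 and 31.2 FPKM in wild-type stem-like, 44.4 and 35.2 in Cd69-/- stem-like, 74.0 and 66.0 in wild-type term diff, and 76.2 and 62.2 in Cd69-/- term diff libraries. All term diff libraries were above all stem-like ones, and Ifngr1 rose by 1.08 ± 0.14 (adjusted p = 0.0012), a call kept under all 19 alternatives. Ifngr2, its signalling partner, was at most 0.536 FPKM. Neither type I receptor chain was called higher: Ifnar1 lay between 12.6 and 17.7 FPKM in all libraries, and Ifnar2 fell by 0.43 on the log2 scale (adjusted p = 0.0139), from 11.5 to 14.0 FPKM in stem-like to 7.21 to 11.4 in term diff libraries. The averaged call of Ifnar2 held under 16 of 19 alternatives. Within 1 genotype, Ifnar2 was called in Cd69-/- cells (-0.68, adjusted p = 0.0167, limma) and not in wild type, and its interaction was not called. Il10rb, a chain shared with interferon lambda, differed by 0.18 and was not called (adjusted p = 0.223).

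Of the 17 kinases, STATs, other IRFs and inhibitors listed, all were kept, 1 rose and 4 fell in term diff cells, against 10.5% and 9.93% of all genes. Jak2, a kinase of the interferon gamma receptor, fell by 1.00 on the log2 scale (adjusted p = 0.00018), from 23.2 to 26.9 FPKM in stem-like to 10.3 to 12.7 in term diff libraries. Stat4, Socs3 and Irf4 fell by 0.72, 0.73 and 0.60. Irf8, which acts in effector CD8 T cells, rose by 0.85 ± 0.09 (adjusted p = 0.00039) and was also lower in Cd69-/- cells, by -0.73 ± 0.09 (adjusted p = 0.0145), a call kept under 13 of 19 alternatives. Its values were 32.6 and 34.4 FPKM in wild-type stem-like, 17.3 and 19.0 in Cd69-/- stem-like, 54.3 and 58.2 in wild-type term diff, and 39.0 and 34.1 in Cd69-/- term diff libraries. The genotypes did not overlap within either subset. Of 15 adaptors of nucleic acid sensing 10 were kept, of which 1 rose and 2 fell, against the same 10.5% and 9.93% of all genes. Tbk1, the kinase that activates IRF3, rose by 0.64 (adjusted p = 0.0022), while Mavs, the adaptor of RIG-I and MDA5, and Traf3 fell by 0.62 and 0.51. None of the 13 genes of class I antigen presentation was called between subsets by limma, where 10.5% of all genes were called higher and 9.93% lower averaged over genotypes. In that average 2 of the 13 had an unadjusted p under 0.05, against 3313 of all 9782 genes.

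A further 58 interferon-stimulated genes had been listed beside the 44, of which 47 were kept; 6 rose and 7 fell in term diff cells averaged over genotypes, where 10.5% and 9.93% of all genes did. Slfn5, a Schlafen family gene, had the largest fall, 1.38 on the log2 scale, dropping from 6.70 to 7.76 FPKM in stem-like to 1.79 to 2.54 in term diff libraries. Ms4a4c, a membrane protein gene, fell by 0.97 and was higher in Cd69-/- cells by 0.78 ± 0.10 (adjusted p = 0.0208), a call kept under 10 of 19 alternatives. Its values were 6.85 and 6.80 FPKM in wild-type stem-like, 12.7 and 12.5 in Cd69-/- stem-like, 3.57 and 2.56 in wild-type term diff, and 6.29 and 5.41 in Cd69-/- term diff libraries. Ly6e, a GPI-anchored antiviral protein, rose by 0.83 (adjusted p = 0.0032).

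The GTPases of both lists were then set out by family, a grouping made after the values were seen, so their counts are a description beside the 10.5% of all genes called higher and 9.93% called lower. Of 10 guanylate-binding protein genes 7 rose in term diff cells and 0 were called lower: Gbp3, Gbp4 and Gbp7, with Gbp6, Gbp9, Gbp10 and Gbp11 from the same cluster as Gbp4. Of 7 immunity-related GTPase genes 0 rose and 3 fell: Iigp1, Tgtp1 and Tgtp2. Iigp1 had 4.76 and 2.92 FPKM in wild-type stem-like, 6.37 and 4.43 in Cd69-/- stem-like, 1.11 and 0.895 in wild-type term diff, and 1.84 and 1.58 in Cd69-/- term diff libraries. The subsets did not overlap, and Iigp1 fell by 1.24 on the log2 scale (adjusted p = 0.00094). Igtp, Irgm1, Irgm2 and Ifi47 had differences of 0.19, 0.12, 0.45 and 0.12 that were not called, nor were those of Gbp8, Gbp2 and Gbp5, at 0.21, -0.10 and -0.26. Both families thus held differences of either sign, with medians of 0.38 and 0.12. Under the alternatives 3 to 7 guanylate-binding protein genes rose, lowest without the first Cd69-/- stem-like library. Gbp5 was called lower under median-of-ratios scaling, quantile normalization and limma-voom, and Irgm2 was called higher under 5 alternatives. The fall of Iigp1 held under all 18 alternatives that kept it, and those of Tgtp1 and Tgtp2 under all 19. The calls of Gbp6, Gbp9, Gbp10 and Gbp11 held under 17, 7, 19 and 18 of 19 alternatives. Close paralogues may share reads, so the calls within a family may not be independent.

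**Figure D5:**
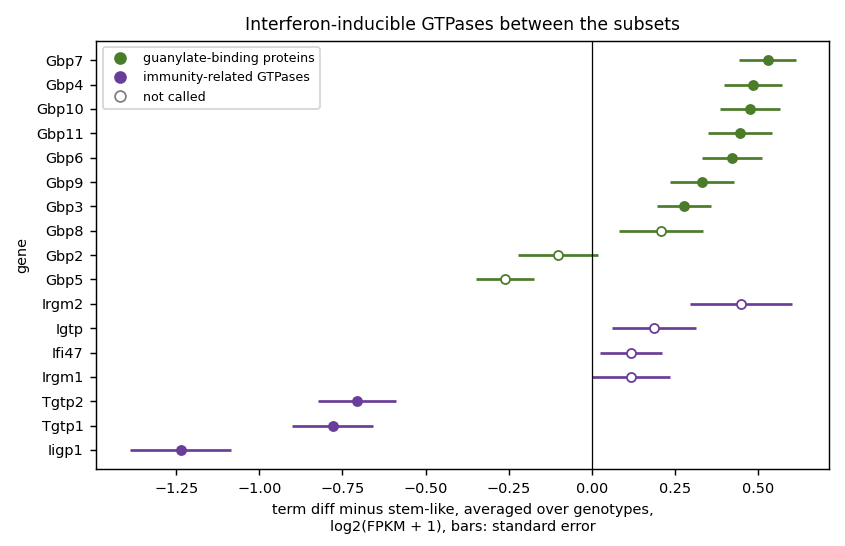
Difference of log2(FPKM + 1) between term diff and stem-like libraries, averaged over genotypes, with its standard error, for 10 guanylate-binding protein genes (green) and 7 immunity-related GTPase genes (purple). Filled points passed an adjusted p of 0.05: the 7 filled green points lie right of 0 and the 3 filled purple points left of it.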

How the data were processed

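The authors deposited 1 gene table per library with expression in FPKM and its confidence limits, in the layout Cufflinks writes, per the file headers. Per the submitters' processing notes, build mm10 was used with Cufflinks 2.2.1, TopHat 1.3.2, Bowtie2 2.3.4 and bcl2fastq 2.20; the annotation, the strand setting and the FPKM total are not given in the sources used here. Per the labels' protocols, live cells were sorted and total RNA was read single-end after a low-input stranded kit.

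The 8 tables (23746 rows each) were joined by symbol and locus; 3 genes with a status other than OK were left out. The 9782 genes that reached 1 FPKM in 2 or more libraries were fitted as log2(FPKM + 1) with limma 3.58.1 in R 4.3.3: 4 group means over all 8 libraries, empirical Bayes with a trend, 4 residual and 4.2 prior degrees of freedom, Benjamini-Hochberg adjusted over all genes, called under 0.05. Depth was implied from the confidence limits (fragments = the square of 2 times FPKM over the distance to the upper limit), is approximate, and covers counting error only; between 69.4% and 70.0% of low values lay within 0.05 of a whole number, so no count test was the main test.

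Values in every library were given for members called in any comparison, the 3 highest, the 3 smallest p in each comparison, the highest of each role group and the 4 transcription factors. From the other pathway lists, called genes were named, up to 4 a list by p, with receptors and ligands at 1 FPKM or more. Members and lists were chosen with earlier results of these data known. Coordinates are the files' loci, 1-based (mm10).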

Additional observations from a re-analysis of the deposited data

How the results depend on the processing

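No called difference of a named gene changed sign under an alternative run. The medians of the Cd69-/- subset difference and of the term diff genotype difference did change sign without single libraries, as given with them. The count of called genes stayed within 1.5 times its first value except as follows. In wild-type cells (6 genes called) the count was 1 with no filter on low values. In Cd69-/- cells (2 called) it was 1 with a pseudocount of 0.1, with a filter at 5 FPKM, after quantile normalization, without a variance trend and with the replicate block, 0 with no filter or with only the groups compared, 4 with robust empirical Bayes and 11 with limma-voom on implied fragments. The 1 gene called in Cd69-/- after quantile normalization, and the 1 with the replicate block, was neither Gbp4 nor Ifi44. Averaged over genotypes (12 called) it was 3 with no filter. The genotype difference averaged over subsets (0 called) gave 1 gene, Ifi44, with limma-voom. Leaving out 1 library at a time gave 0 to 6 genes in wild type, 0 to 1 in Cd69-/- and 6 to 11 averaged, with 6 both without the first Cd69-/- stem-like and without the first Cd69-/- term diff library. Leaving out both libraries with the least small RNA, a choice made after seeing the data, gave 0, 0 and 6. Some of these settings fitted fewer libraries or more genes, and the cause of these moves was not tested.

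The replicate numbers were not taken to pair libraries. Over all genes kept, replicate 1 minus replicate 2 correlated at 0.15 between the wild-type subsets and -0.16 between the Cd69-/- subsets. Between genotypes it correlated at -0.09 in stem-like and 0.09 in term diff cells. No correlation was taken over the set alone. There replicate 1 was the higher in 41 and 31 of 42 genes in Cd69-/- term diff and stem-like cells, and in 36 and 20 in those of wild type. With the replicate block 6, 1 and 12 genes were called between subsets in wild type, in Cd69-/- and averaged, and 0 between genotypes. Of these, 5, 0 and 11 were among the genes called without the block. With 2 libraries a group, each arm left with 1 library was assumed to vary like the other groups. Genes near 1 FPKM, such as Ifi44 and Oasl1, rest on few fragments. So do some genes at higher FPKM, with 15 to 60 implied fragments a library for Isg15, 11 to 91 for Ly6a and 22 to 55 for Oas1a.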
